A study of Homo sapiens with 6 samples.

Results

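The EGF receptor family consists of cell-surface receptor tyrosine kinases and the peptide growth factors that activate them, and it was examined here in ARPE-19 cells after knockdown of EIF1. The members were 10 genes listed by symbol, and they comprised the receptors EGFR, ERBB2 and ERBB3, the ligands AREG, EREG, HBEGF, TGFA, BTC and NRG1, and the inhibitor ERRFI1. Of the 10, 9 had a row among the 30618 genes of the count table, and EREG was not analysed here. ERBB3 and AREG did not pass the filter on low counts, which left 7 members among the 16749 genes tested. ARPE-19 cells are a widely used human line that grew out of the retinal pigment epithelium. All 6 libraries came from cells in 50 mM glucose, so the high-glucose condition is shared by both groups. The NC group received a non-targeting control siRNA and the siEIF1 group an siRNA against EIF1, with 3 biological replicates each. The cells are a single established line and the knockdown rests on a single siRNA sequence given in the methods, which limits the groups as a model.

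A ligand of this family binds the outer part of a receptor, and the bound receptors pair with themselves or with another family member and phosphorylate each other. ERBB2 has no known ligand of its own and acts mainly as a partner, ERBB3 has little kinase activity and depends on its partner, and EGFR and ERBB4 can bind ligand and signal. The paired receptors feed the RAS and MAPK cascade and the PI3K and AKT pathway, and the genes switched on by MAPK include inhibitors that dampen the same signal, ERRFI1 among them. In the retinal pigment epithelium, EGF receptor signalling is known for promoting survival, proliferation and wound closure. EIF1 is a translation initiation factor that takes part in the choice of the start codon.

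The libraries held from 26499929 to 31431479 counts. EIF1, the targeted gene, had an FPKM (fragments scaled to gene length and sequencing depth) of 281.08 to 294.35 in the NC and 22.68 to 24.28 in the siEIF1 libraries (log2 fold change -3.58, standard error 0.055, edgeR, adjusted p = 1.08e-13). Of 12 retinal pigment epithelium markers, 10 passed the count filter, among them BEST1 and the keratins KRT8 and KRT18, while TYR did not pass and RPE65 was not analysed here. KRT8 and KRT18 rose by 0.24 and 0.25 on the log2 scale (edgeR, adjusted p = 0.0095 and 0.00442), about as much as ERBB2, and BEST1 had a log2 fold change of -0.32 (edgeR, adjusted p = 0.106). None of 4 endothelial markers passed the filter, and of 4 leukocyte markers only the lysosomal gene CD68 did. Of 4 photoreceptor markers, PDE6B and NRL passed the filter, with log2 fold changes of 0.27 and 0.10 (edgeR, adjusted p = 0.0521 and 0.825). RLBP1, listed for both pigment epithelium and Muller glia, rose by 1.55 on the log2 scale (edgeR, adjusted p = 0.00102) from a mean FPKM of 0.237 to 0.68. Of 4 Muller glia markers, GLUL, with a log2 fold change of 0.18 (edgeR, adjusted p = 0.0157), and RLBP1 passed the filter, while GFAP and SLC1A3 did not. The part of these markers in the results on the receptor family was not tested. In bulk libraries, fewer cells of a kind and less RNA per cell cannot be told apart.

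The family was led by EGFR in every library, and TGFA was the ligand with the highest FPKM. In the NC group the mean FPKM fell in the order EGFR (16.2 ± 0.452, SD, n = 3), TGFA (8.31 ± 0.816), ERRFI1 (6.64 ± 0.99), ERBB2 (4.66 ± 0.264), HBEGF (3.94 ± 0.40), BTC (1.75 ± 0.263), NRG1 (0.607 ± 0.0503), AREG (0.09 ± 0.02) and ERBB3 (0.02 in each library). No neighbours in this order overlapped between their NC libraries, although TGFA and ERRFI1 came close, with 7.79 as the lowest TGFA and 7.75 as the highest ERRFI1 value. In the siEIF1 group, ERBB2 (5.44 ± 0.352, SD, n = 3) stood above ERRFI1 (5.10 ± 0.605), and the FPKM ranges of ERBB2 and ERRFI1, of ERRFI1 and HBEGF, and of AREG and ERBB3 overlapped. FPKM depends on the length assigned to a gene and on the read total used as depth. The sources used here give neither value. With the count total of each library as depth, the implied lengths were about 15300 bases for EGFR, 12600 for ERBB2 and 26300 for NRG1. In GENCODE 44 all exons of these genes together cover 15941, 10321 and 21372 bases, and the canonical transcripts have 9905, 4557 and 11983. For ERBB2 and NRG1 the implied values exceed all exons together, so they are not taken as the assigned lengths. When depth-scaled counts (CPM) were divided by the canonical length in kilobases, EGFR was still the highest in NC at 24.9 ± 0.788 (SD, n = 3), but ERBB2 (12.9 ± 0.746) came next to TGFA (12.1 ± 1.22) and ERRFI1 (10.9 ± 1.64), with overlapping ranges. The order of ERBB2 against TGFA and against ERRFI1 is therefore set by the length used, and a comparison of 1 gene between the groups is not affected by it.

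**Figure D1:**
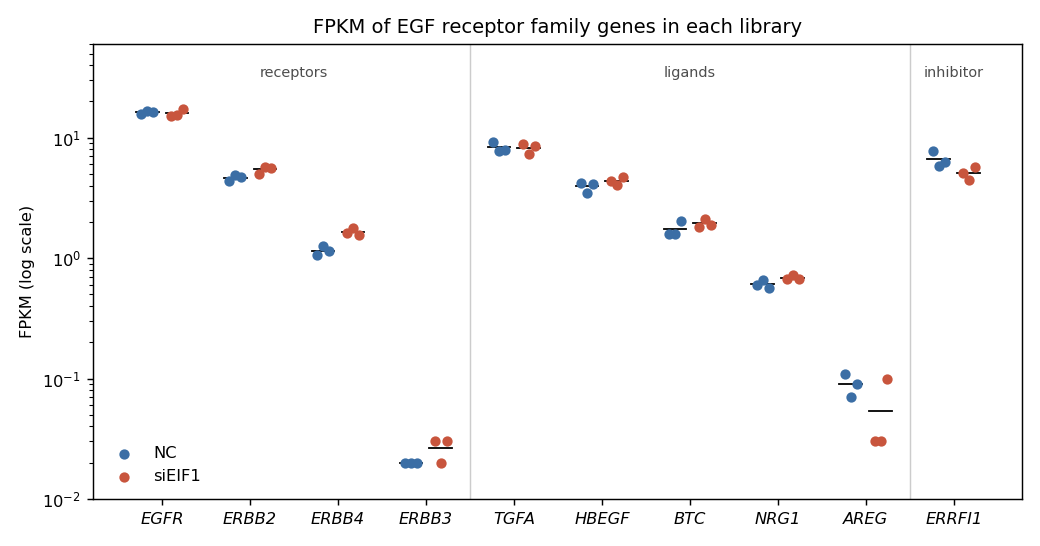
FPKM on a log scale (y axis) for receptors, ligands and ERRFI1 (x axis), with 1 point per library, NC in blue and siEIF1 in red, and a bar at each group mean of 3 libraries. EGFR lies highest at 15.2 to 17.39 in all libraries and ERBB3 lowest at 0.02 to 0.03, while ERBB2 and ERBB4 are higher and ERRFI1 is lower in every siEIF1 library than in every NC library.

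Among the receptors, ERBB2 rose in the siEIF1 group while EGFR did not pass the test. EGFR, which binds EGF, TGFA, AREG, HBEGF and BTC, had 15.72, 16.61 and 16.30 FPKM in NC replicates 1 to 3 and 15.20, 15.35 and 17.39 in siEIF1 replicates 1 to 3. The groups overlapped, with both the lowest and the highest value among the siEIF1 libraries. The log2 fold change of EGFR was -0.0017 (standard error 0.053, edgeR, adjusted p = 0.989), and the 95% interval of the fold change ran from 0.923 to 1.08. EGFR lies on chromosome 7 from 55019017 to 55211628 (GRCh38, forward strand), and the antisense gene EGFR-AS1 inside it had 2 to 9 counts against 6392 to 7862 for EGFR.

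ERBB2 had 4.37, 4.88 and 4.74 FPKM in the NC and 5.04, 5.69 and 5.60 in the siEIF1 replicates. Every siEIF1 library was above every NC library (exact permutation test on FPKM, two-sided, p = 0.1, the smallest that 3 against 3 allow). The fold change was 1.18 (95% interval 1.08 to 1.30), or 0.24 on the log2 scale (standard error 0.063, edgeR, adjusted p = 0.0149). The call was lost without NC replicate 1 (log2 fold change 0.20, adjusted p = 0.0694), without NC replicate 3 (0.25, adjusted p = 0.0533) and without siEIF1 replicate 2 (0.19, adjusted p = 0.0828), each by edgeR, and also with limma on FPKM. ERBB2 lies on chromosome 17 from 39687914 to 39730426 on the forward strand and overlaps PGAP3 and MIEN1 on the opposite strand, whose log2 fold changes were 0.034 and 0.056.

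ERBB3, the receptor for neuregulins that signals through its partner, had 8, 7 and 9 counts in the NC and 13, 9 and 12 in the siEIF1 libraries. At this depth the gene was close to the limit of detection and its groups met at 9 counts, so no fold change is given. ERBB4, the remaining receptor of the family and not among the 10 members, came from the list of other family genes, and it rose by more than ERBB2 did on the log2 scale. ERBB4 had 1.06, 1.26 and 1.14 FPKM in the NC and 1.61, 1.77 and 1.56 in the siEIF1 replicates. The groups did not overlap, and the log2 fold change was 0.53 (standard error 0.084, 95% interval 0.35 to 0.72, edgeR, adjusted p = 6.15e-04). It kept an adjusted p under 0.05 with each library left out in turn, with log2 fold changes between 0.46 and 0.60. The difference between the changes of ERBB4 and ERBB2 was not tested.

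Summed over the 4 receptors, the FPKM was between 21.17 and 22.77 in the NC and between 21.88 and 24.58 in the siEIF1 libraries, so the sums overlapped. EGFR made up 72.9% to 74.3% of this sum in the NC and 67.2% to 70.7% in the siEIF1 libraries. The share of ERBB2 was 20.6% to 21.4% in the NC and 22.8% to 24.9% in the siEIF1 libraries, and that of ERBB4 went from 5.01% to 5.53% up to 6.35% to 7.75%. None of these 3 shares overlapped between the groups, and each is a description of the same values and rests on the lengths behind the FPKM.

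None of the 4 ligands tested passed an adjusted p of 0.05 by edgeR or by DESeq2, and 1 of them, NRG1, had an unadjusted p under 0.05 by edgeR. TGFA, a ligand of EGFR made as a membrane-bound precursor, had 9.25, 7.79 and 7.89 FPKM in the NC and 8.79, 7.34 and 8.56 in the siEIF1 replicates. The TGFA groups overlapped, with siEIF1 replicate 2 the lowest and NC replicate 1 the highest, and the log2 fold change was 0.0060 (95% interval -0.16 to 0.17, edgeR, adjusted p = 0.971). HBEGF, a heparin-binding ligand of EGFR and ERBB4, had 4.21, 3.48 and 4.13 FPKM in the NC and 4.36, 4.02 and 4.70 in the siEIF1 replicates. A single siEIF1 library lay inside the NC range, and the log2 fold change was 0.17 (95% interval -0.015 to 0.35, edgeR, adjusted p = 0.191).

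BTC (betacellulin), another ligand of EGFR and ERBB4, had 1.60, 1.59 and 2.05 FPKM in the NC and 1.82, 2.11 and 1.90 in the siEIF1 replicates. NC replicate 3 lay among the siEIF1 values, and the log2 fold change was 0.17 with a wider 95% interval of -0.10 to 0.45 (edgeR, adjusted p = 0.389). NRG1 (neuregulin 1), a ligand of ERBB3 and ERBB4, had 0.60, 0.66 and 0.56 FPKM in the NC and 0.67, 0.72 and 0.67 in the siEIF1 replicates. The NRG1 groups did not overlap, by a margin of 0.66 against 0.67 FPKM (exact permutation test, two-sided, p = 0.1, the smallest possible). The log2 fold change was 0.20 (standard error 0.083) and missed the threshold after adjustment (edgeR, adjusted p = 0.113, and 0.0503 with the replicate number as a block). AREG (amphiregulin) had 6, 4 and 5 counts in the NC and 2, 2 and 6 in the siEIF1 libraries, so a difference was not detectable at this depth and no fold change is given.

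TGFA made up between 53.6% and 58.7% of the FPKM summed over TGFA, HBEGF, BTC, NRG1 and AREG in the NC libraries and between 51.6% and 56.1% in the siEIF1 libraries. HBEGF held 25.6% to 28.1% in the NC and 27.8% to 29.5% in the siEIF1 libraries, so the make-up of the measured ligands overlapped between the groups for both genes. Of the other ligands of the family, NRG2 had a log2 fold change of -0.24 (95% interval -0.51 to 0.035, edgeR, adjusted p = 0.216) and NRG3 of 0.034 (95% interval -0.18 to 0.25, edgeR, adjusted p = 0.854). EGF, the founding ligand, had only 8 to 10 counts in the NC and 10 to 21 in the siEIF1 libraries (edgeR, adjusted p = 0.204), NRG4 had 13 to 30 counts (edgeR, adjusted p = 0.684), and EPGN (epigen), with 0 to 2, was not tested.

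ERRFI1, also known as MIG6, binds the kinase domain of EGF receptor family members and blocks it. Among the members tested, ERRFI1 was the only gene lower in the siEIF1 group at an adjusted p under 0.05 by edgeR. It had 7.75, 5.84 and 6.34 FPKM in the NC and 5.12, 4.48 and 5.69 in the siEIF1 replicates. Every siEIF1 library was below every NC library (exact permutation test on FPKM, two-sided, p = 0.1, the smallest possible), with NC replicate 2 and siEIF1 replicate 3 close to each other at 5.84 and 5.69. The fold change was 0.777 (95% interval 0.671 to 0.901), or -0.36 on the log2 scale (standard error 0.099, edgeR, adjusted p = 0.0188). NC replicate 1 was the highest and siEIF1 replicate 2 the lowest library, and the call was lost without the former (log2 fold change -0.24, adjusted p = 0.0854) and without the latter (-0.29, adjusted p = 0.0977), each by edgeR, and also with limma on FPKM. The FPKM of EGFR was 2.03 to 2.84 times that of ERRFI1 in the NC libraries and 2.97 to 3.43 times in the siEIF1 libraries, and the ratio of ERBB2 to ERRFI1 was 0.564 to 0.836 in the NC and 0.984 to 1.27 in the siEIF1 libraries. Which of ERBB2 and ERRFI1 is higher in NC depends on the length used, since the ratio of their NC means was 0.702 by FPKM and 1.18 by CPM per kilobase of the canonical transcript. ERRFI1 lies on chromosome 1 from 8004404 to 8026309 on the reverse strand, with a noncoding gene on the opposite strand at its end.

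The promoters of ERBB2 and ERRFI1 are shown because these were the members that passed the test, in opposite directions. Each window runs from 250 bases before to 50 after the start of the gene in RefSeq (GRCh38.p14) and is written in the direction of transcription. The ERBB2 window is chr17:39687844-39688143 on the forward strand, which also holds part of PGAP3 on the reverse strand, and the ERRFI1 window is chr1:8026260-8026559 on the reverse strand. Capitals mark matches, on either strand, to the ETS core CCGGAAGT, the cAMP response element TGACGTCA, or the TATA sequences TATAAA and TATATA. They also mark a loose AP-1 pattern, TGANTCA, in which N is any base.
ERBB2: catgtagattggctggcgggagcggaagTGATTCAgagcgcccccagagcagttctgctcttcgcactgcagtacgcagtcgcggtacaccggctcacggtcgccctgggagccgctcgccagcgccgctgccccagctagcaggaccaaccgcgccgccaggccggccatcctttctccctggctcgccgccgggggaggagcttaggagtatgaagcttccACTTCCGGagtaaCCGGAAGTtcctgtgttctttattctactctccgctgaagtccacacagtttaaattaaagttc
ERRFI1: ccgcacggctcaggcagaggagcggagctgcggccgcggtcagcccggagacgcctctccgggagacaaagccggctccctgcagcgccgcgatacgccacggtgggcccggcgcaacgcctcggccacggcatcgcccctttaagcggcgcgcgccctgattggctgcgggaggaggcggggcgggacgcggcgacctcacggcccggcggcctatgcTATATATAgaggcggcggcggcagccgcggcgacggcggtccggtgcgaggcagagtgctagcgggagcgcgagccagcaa

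The ERBB2 window held 2 matches to the ETS core, in opposite orientations and 5 bases apart. It also held 1 match to the loose AP-1 pattern, TGATTCA, with T as the middle base. The ERRFI1 window held 2 overlapping matches to TATATA just before its start and none to the other motifs. Among 35116 RefSeq windows of the same length, 4.14% held the ETS core and 7.71% the loose AP-1 pattern. The cAMP response element was in 1.85%, TATAAA in 11.5% and TATATA in 3.99%. Windows were found for 8 of the 10 members, with ERBB3 and NRG1 unmatched. Of the 2 EGFR windows, chr7:55109589-55109888 held 2 matches to the AP-1 pattern and 2 to TATAAA, and the other held none. The AREG window held 1 cAMP response element and 1 TATAAA, and the EREG window 1 TATAAA. The windows of HBEGF, BTC and TGFA held none of these motifs. The motifs were thus not confined to the members that passed the test. These matches are letters in a window, and no binding was measured.

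In all, 2 of the 7 members tested (28.6%) passed an adjusted p of 0.05, where 20.6% of all genes tested did. Among all genes, 10.2% passed as higher and 10.4% as lower in the siEIF1 group, and among the members 1 was higher (ERBB2) and 1 lower (ERRFI1). None passed both this limit and a fold change above 2 or below 0.5, either by edgeR or by DESeq2, and none did at an unadjusted p under 0.05 by edgeR, while 1.71% of all genes passed both limits. The CPM of the groups did not overlap for 3 of the 7 members (ERBB2, NRG1 and ERRFI1), against 37.1% of all genes. With 7 genes tested, these shares of the members were near those of all genes. The median log2 fold change of the 7 members was 0.17, which is the value of HBEGF, against 0.0033 over all genes. Above 0 were 5 of the 7, namely ERBB2, which passed, and the 4 ligands, which did not. A shift of the family as a whole was not tested.

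**Figure D2:**
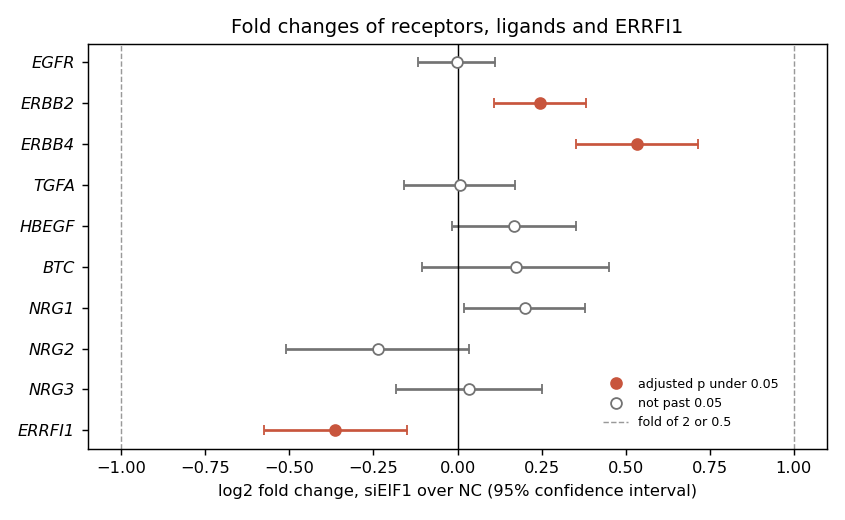
Log2 fold change of siEIF1 over NC (x axis) with its 95% interval for 3 receptors, 6 ligands and ERRFI1 (y axis; EGF and NRG4, tested at 8 to 30 counts and with wider intervals, are left out), from edgeR on 3 libraries per group, with genes past an adjusted p of 0.05 in red and dashed lines at a fold of 2 and 0.5. ERBB2 (0.24) and ERBB4 (0.53) lie to the right, ERRFI1 (-0.36) to the left, and no plotted interval reaches a dashed line.

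The genes that release the ligands and carry the signal onward did not move in a single direction. Over 7 hand-written lists of 98 genes, 94 were tested and 31 passed an adjusted p of 0.05 by edgeR (33.0%). Of these, 15 were higher and 16 lower, and the median log2 fold change of the 94 was -0.0062. The lists were chosen with earlier results of these data known, so each list's share is a description and not a test. Of 11 genes of ligand release, 4 rose and 1 fell (45.5% passed, against 20.6% of all genes). ADAM17, the protease that cuts TGFA, AREG and HBEGF free from the membrane, fell from 3.73 to 4.42 FPKM in the NC to 3.21 to 3.48 in the siEIF1 libraries (log2 fold change -0.28, standard error 0.064, edgeR, adjusted p = 0.00655). ADAM10, which releases BTC and EGF, rose from 3.65 to 3.75 FPKM up to 4.35 to 4.63 (log2 fold change 0.29, standard error 0.047, edgeR, adjusted p = 7.61e-04). NRDC, an enhancer of this shedding, and ADAM9, another protease of the family, rose by 0.24 and 0.25 on the log2 scale (edgeR, adjusted p = 0.00499 and 0.00857). The remaining gene of this list that rose was RHBDF2 (log2 fold change 0.34, edgeR, adjusted p = 0.00923). The RHBDF2 call was lost without siEIF1 replicate 2 (edgeR, adjusted p = 0.054).

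Of 18 receptor-proximal adaptors tested, 3 rose and 3 fell (33.3% passed, against 20.6% of all genes). GRB2, the adaptor that links phosphorylated receptors to RAS activation, fell by 0.24 on the log2 scale (standard error 0.052, edgeR, adjusted p = 0.00474), as did the phosphatase PTPN11, by 0.23 (edgeR, adjusted p = 0.00839). STAT3, a transcription factor downstream of the receptors, rose by 0.37 on the log2 scale (standard error 0.071, edgeR, adjusted p = 0.00243), and the adaptor SHC1 by 0.17 (edgeR, adjusted p = 0.0167). The SHC1 call was lost without NC replicate 2 (adjusted p = 0.0905), NC replicate 3 (0.0704) or siEIF1 replicate 2 (0.0547), all by edgeR.

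Of 16 RAS and MAPK cascade genes, 3 rose and 1 fell (25.0% passed, near the 20.6% of all genes). MAP2K1 (MEK1) fell from 19.49 to 20.7 FPKM in the NC to 15.86 to 16.99 in the siEIF1 libraries (log2 fold change -0.27, edgeR, adjusted p = 0.00222), and MAPK3 (ERK1), the kinase it activates, rose from 13.9 to 15.27 up to 17.51 to 17.85 FPKM (log2 fold change 0.28, edgeR, adjusted p = 0.00226). The kinases RPS6KA1 and RPS6KA3, which ERK activates, rose by 0.35 and 0.20 on the log2 scale (edgeR, adjusted p = 0.00208 and 0.0153), and the RPS6KA3 call was lost without NC replicate 2 (edgeR, adjusted p = 0.0542), NC replicate 3 (0.0861) or siEIF1 replicate 1 (0.0598). Of 11 PI3K and AKT genes, 2 rose and 1 fell (27.3% passed, also near that of all genes). The catalytic subunit PIK3CD and the regulatory subunit PIK3R1 rose by 0.40 and 0.38 on the log2 scale (edgeR, adjusted p = 0.00121 and 0.00354), and the kinase AKT1 fell by 0.20 (edgeR, adjusted p = 0.0119; without siEIF1 replicate 2, 0.0597). PIK3R3, the next gene by p, had a log2 fold change of 0.66 with an adjusted p of 0.069 by edgeR, and it was called when genes of low count were kept in the test (0.0445) and without NC replicate 3 (log2 fold change 0.94, adjusted p = 0.0253).

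**Figure D3:**
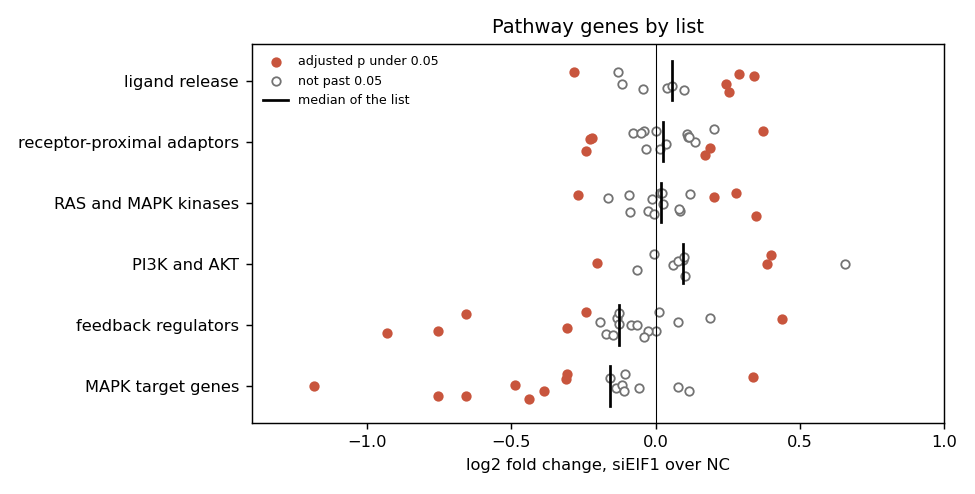
Log2 fold change of siEIF1 over NC (x axis) of each tested gene of 6 pathway lists (y axis, spread for display), with genes past an adjusted p of 0.05 by edgeR in red and the list median as a bar. The genes farthest to the left are feedback regulators and MAPK target genes, whose medians are -0.13 and -0.16, while the other 4 lists have medians between 0.017 and 0.095.

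Of 17 tested genes that MAPK signalling is known to switch on, 8 fell, 1, EPHA4, rose and 8 did not pass the test. The share that passed was 52.9%, against 20.6% of all genes, and the median log2 fold change was -0.16 against 0.0033. This list too was chosen with earlier results known, so whether MAPK target genes fell as a class was not tested. CCND1, which encodes the G1 cyclin D1 and is also a cell cycle gene, had 193.44, 175.5 and 192.24 FPKM in the NC and 75.89, 72.63 and 95.61 in the siEIF1 replicates, and was the only pathway gene past the fold limit (log2 fold change -1.18, standard error 0.079, edgeR, adjusted p = 6.61e-07). PLAUR, the urokinase receptor, fell by 0.39 on the log2 scale (edgeR, adjusted p = 0.00168), and the ETS factors ETV4 and ETV5 fell by 0.49 and 0.44 (edgeR, adjusted p = 0.00598 and 0.00309). The other target genes that fell were FOSL1, SPRY4 and the phosphatases DUSP4 and DUSP6. The EPHA4 call (log2 fold change 0.34, edgeR, adjusted p = 0.0187) was lost without any single NC library (adjusted p between 0.0503 and 0.0619) and without siEIF1 replicate 3 (0.0663).

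Of 20 feedback regulators, the group to which ERRFI1 belongs by function, 5 fell and 1 rose (30.0% passed, against 20.6% of all genes). Their median log2 fold change was -0.13, against 0.0033 over all genes. DUSP5, a nuclear phosphatase that inactivates ERK, had 33.29, 19.97 and 24.67 FPKM in the NC and 13.65, 11.16 and 15.55 in the siEIF1 replicates (log2 fold change -0.93, standard error 0.15, edgeR, adjusted p = 5.79e-04). DUSP6, its cytoplasmic counterpart, had 7.29, 4.17 and 4.78 FPKM in the NC and 3.35, 2.46 and 3.68 in the siEIF1 replicates (log2 fold change -0.76, standard error 0.18, edgeR, adjusted p = 0.00809). DUSP4 fell by 0.31 (edgeR, adjusted p = 0.00212), and the other regulators past the threshold were SPRY4 and SOCS5. SOCS5 (log2 fold change -0.24, edgeR, adjusted p = 0.0343) kept its call only without NC replicate 1 among the fits that left out a library, with adjusted p between 0.0584 and 0.151 in the other 5, and lost it with DESeq2 (adjusted p = 0.0706). PTPRJ, a receptor phosphatase that acts on EGFR, rose by 0.44 (edgeR, adjusted p = 0.00111). The feedback and target lists share 4 genes, DUSP4, DUSP6, SPRY2 and SPRY4.

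The libraries lay in a similar order for ERRFI1 and the feedback and target genes plotted with it. NC replicate 1 was the highest of the 6 libraries for 10 of these 10 genes and siEIF1 replicate 2 the lowest for 9, where among all 1744 genes lower in the siEIF1 group NC replicate 1 was the highest for 59.6% and siEIF1 replicate 2 the lowest for 50.4%. The 9 genes beside ERRFI1 were picked for display, after their values were seen, from the genes called lower. Their shared order is therefore a description and not a test. SPRY4 lost its call without NC replicate 1 (log2 fold change -0.42, edgeR, adjusted p = 0.115) and without siEIF1 replicate 2 (-0.54, edgeR, adjusted p = 0.10), and the other 8 kept an adjusted p under 0.05 without each library in turn. The part of these 2 libraries in the lower levels was not tested further.

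**Figure D4:**
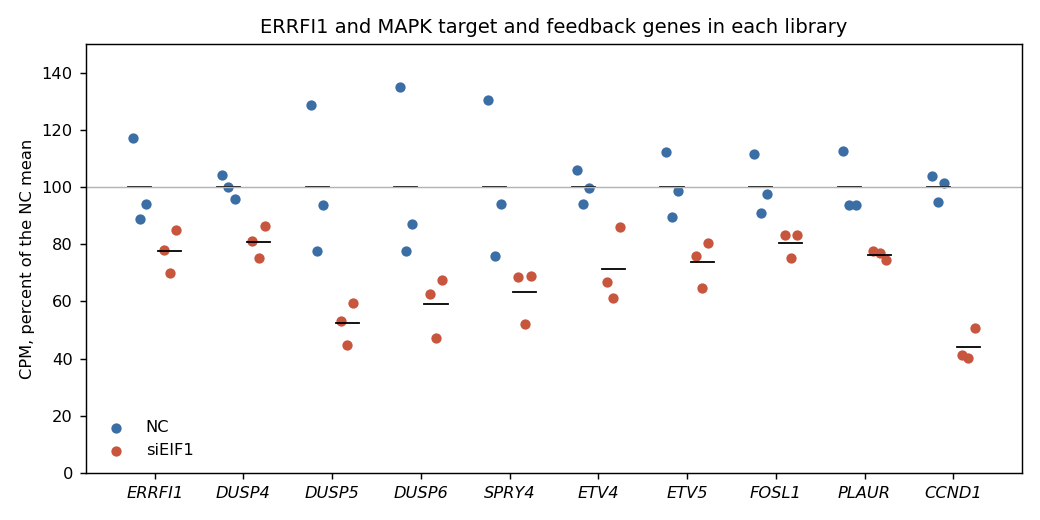
CPM as a percent of the NC mean (y axis) for ERRFI1 and 9 MAPK feedback or target genes (x axis), with 1 point per library, NC in blue and siEIF1 in red, and bars at the group means of 3 libraries. ERRFI1 lies between 69.9% and 84.9% in the siEIF1 libraries and CCND1 between 40.3% and 50.7%, and for each gene every siEIF1 point is below every NC point. The 9 genes were picked from those called lower after their values were seen, which favours such a separation.

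ERBB2 had the smallest p-value of the members, and 13382 genes with a mean count of at least 50 were ranked by the Pearson correlation of their log2 CPM with that of ERBB2 over the 6 libraries. The 3 highest were ACAD10 (r = 0.998), ESPNL (r = 0.996) and WNT2B (r = 0.994), with log2 fold changes of 0.28, 0.25 and 0.54. All points share the same 6 libraries, and the difference between the groups is part of each correlation.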

How the data were processed

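RNA-seq was compared between 3 NC and 3 siEIF1 libraries, grouped and numbered by sample title. The authors trimmed reads with FASTX-Toolkit 0.0.13, aligned them to GRCh38 with HISAT2 and deposited raw counts of uniquely mapped reads per gene. The authors also deposited FPKM values, rounded to 2 decimals. The libraries were directional, but the counting program, its strand setting and the annotation are not given in the sources used here, so counts of overlapping genes are uncertain. All columns were assigned to a library (0 unmatched).

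Counts were tested with edgeR 4.0.16 in R 4.3.3 (filterByExpr, TMM, quasi-likelihood test, Benjamini-Hochberg adjustment over 16749 genes, standard errors from the F statistic). Alternatives used DESeq2 1.42.0, limma 3.58.1 on log2(FPKM + 1) and log2(FPKM + 0.1), other normalizations and filters, the replicate number as a block, and each library left out. The script was tested on simulated counts. Depth was 26499929 to 31431479 counts, so members with under about 20 counts have no usable precision.

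Same-numbered libraries deviated together from their group means (correlations 0.16, 0.156 and 0.216 over genes), a pairing seen in the data only. The correlations of libraries with different numbers ran from -0.243 to 0.063. Deviations from a mean of 3 libraries are tied to each other, so these correlations are not independent. The members and gene lists were chosen with earlier results of these data known. Named were the members, EIF1, all other family genes, and from each list the genes past both limits plus up to 4 with the smallest p. EPHA4, FOSL1, RHBDF2, SOCS5, SPRY2 and SPRY4 were named after their values were seen. Gene coordinates and transcript lengths came from GENCODE 44 on GRCh38, and promoters from RefSeq.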

Additional observations from a re-analysis of the deposited data

How the results depend on the processing

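The count of members with an adjusted p under 0.05 (2, ERBB2 and ERRFI1) was also 2 with RLE and upper-quartile factors, both other count filters and DESeq2. It was 0 with limma on log2(FPKM + 1), 0 with limma on log2(FPKM + 0.1) and 0 at a limit of 0.01. With each library left out in turn it ran from 0 to 2. With the replicate block the count of members was 2 as well, and the pathway count was 35 in place of 31. In that fit no call changed for EIF1, the members tested or the named pathway genes other than SPRY2. Calls of SPRY2, the cell type markers and the genes that overlap or correlate with ERBB2 were not compared. No member passed the fold limit under any alternative, including a limit of 1.5. Directions reversed only for genes far from the threshold: EGFR ran from -0.0502 to 0.0331 and NRG3 from -0.0274 to 0.0685 (log2) with a library left out, and TGFA from -0.0446 to 0.0910, with -0.0124 and -0.0138 by limma on FPKM with 1 and 0.1 added. Limma on FPKM also took ADAM9, RPS6KA3, PIK3R1, DUSP6, SPRY4, SOCS5 and EPHA4 above an adjusted p of 0.05. In NC the ratio of ERBB2 to TGFA went from 0.561 to 1.07 and that of ERBB2 to ERRFI1 from 0.702 to 1.18 with canonical lengths, an alternative chosen after seeing the data. Depth limits ERBB3, AREG, EGF, NRG4 and EPGN. The cause of the lost calls was not tested.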
